A study of Homo sapiens with 9 samples.

Results

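The genes described here are 10 transcriptional targets of the tumour suppressor p53, namely MDM2, TP53INP1, RRM2B, AEN, SESN1, ZMAT3, FAS, TP53I3, DDB2 and XPC. They were chosen by gene symbol in the table of normalized read counts, which holds 17518 genes. Of the 10 genes, 9 were in that table and all 9 passed the filter on low values, among 17514 genes tested. FAS was outside that table and is described from the length-scaled values alone. The genes were measured in COR-L279, a human line grown from small cell lung cancer (SCLC) and labelled SCLC-N, with the genotype given as WT in every library. Cells received JQ1 for 24 h at 0.5 µM or at 1.5 µM, or DMSO, its solvent, for the same 24 h. JQ1 is a small molecule that keeps BET proteins off acetylated histones. The question of the study was how blocking them alters transcription in cells marked by NEUROD1. Each group held 3 libraries of total RNA, labelled as biological replicates, which makes 9 in all.

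The transcription factor p53 is held at a low level by MDM2, a ubiquitin ligase that is itself a p53 target. DNA damage and other stresses release p53 from MDM2, and p53 then raises genes for cell cycle arrest, DNA repair, nucleotide supply, metabolic restraint and cell death. Many of these targets also keep a basal expression that does not need p53.

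The libraries held between 60721187 (0.5 µM replicate 2) and 88482001 (DMSO replicate 2) reads in genes, so that counting error is small for the 9 tested targets. Values are normalized counts, which are read counts divided by 1 size factor per library, and they give changes relative to the bulk of genes. In bulk RNA, fewer cells of a kind and less RNA per cell cannot be told apart. Replicates differed by more than counting error, and 0.5 µM replicate 2 stood apart from the other libraries of its dose (chi-square per degree of freedom of 26.7 and 30.97 against them, and 5.00 between them). Another 3 libraries (replicate 3 of 0.5 µM, replicates 1 and 2 of 1.5 µM) held the imprinted RNA H19 at 1476 to 2071 normalized counts, against 1.04 to 82.8 in the other 6. Leaving out these 3 keeps only replicate 3 at 1.5 µM and replicates 1 and 2 at 0.5 µM. A call lost without them can thus reflect fewer libraries rather than these libraries, which was not tested. All 14 markers listed for SCLC were detected in all 9 libraries, with summed levels of 2907 to 3082 FPKM. Of 18 markers of immune, stromal, endothelial, airway and other cells, COL1A2 reached 1 FPKM in every library and LUM only in the 3 libraries with H19. The summed level of those 18 was 6.39 to 11.6 FPKM at 0.5 µM and 6.0 to 9.69 FPKM at 1.5 µM, against 17.0 to 18.5 FPKM in DMSO, and 4 to 8 of them stood at 0. Most of that sum was COL1A2, with 14.7 to 15.7 FPKM in DMSO, 4.91 to 6.04 at 0.5 µM and 4.46 to 5.32 at 1.5 µM. LUM added 2.91 to 4 FPKM in the 3 libraries with H19. The part of these 18 markers in the results was not tested. HEXIM1, a standard readout of BET inhibition, rose in all JQ1 libraries, by a log2 fold change of 2.29 ± 0.032 (SE) at 0.5 µM and 2.63 ± 0.032 at 1.5 µM.

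The DNA around the start sites is shown for the 5 targets that both changed in JQ1 and held a match to the p53 site, because p53 acts on many of these genes through a site near the start. RefSeq promoter windows of 300 bases (250 before to 50 after an annotated start, build GRCh38.p14) were at hand for 8 of the 10 genes, 17 windows in all, and none was at hand for TP53INP1 and RRM2B, which rose the most. They were searched for the p53 consensus, a 20-base palindrome of 2 half-sites, taken here with no bases between the half-sites. A match had at most 3 mismatches, a limit set after values had been seen. Such a match stood in 7 of the 17 windows, which belong to 6 genes and include a pair of overlapping MDM2 windows with the same matches, and in 5.2% of all 35116 windows in the RefSeq table. The genes were listed because they are p53 targets, so a higher share than over all windows is no result of these data. The stretches run 5′ to 3′ on the strand of the gene, with the matches in capitals. Those of MDM2, AEN and SESN1 end at the base before the start, that of DDB2 runs on to the end of a match that crosses the start, and that of XPC is its match alone, which lies 13 to 32 bases after the start.
MDM2 (chr12:68808867-68809016, plus strand): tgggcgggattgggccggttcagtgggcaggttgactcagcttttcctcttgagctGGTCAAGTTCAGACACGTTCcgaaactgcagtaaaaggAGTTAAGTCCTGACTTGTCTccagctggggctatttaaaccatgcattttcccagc
AEN (chr15:88621190-88621339, plus strand): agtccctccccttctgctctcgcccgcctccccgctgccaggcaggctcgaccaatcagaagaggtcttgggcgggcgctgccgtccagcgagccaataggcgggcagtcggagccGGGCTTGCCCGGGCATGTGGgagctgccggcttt
SESN1 (chr6:109008989-109009138, minus strand): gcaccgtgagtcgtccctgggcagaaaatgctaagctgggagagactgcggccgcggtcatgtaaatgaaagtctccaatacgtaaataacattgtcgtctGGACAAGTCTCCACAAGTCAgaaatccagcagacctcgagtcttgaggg
DDB2 (chr11:47214824-47214988, plus strand): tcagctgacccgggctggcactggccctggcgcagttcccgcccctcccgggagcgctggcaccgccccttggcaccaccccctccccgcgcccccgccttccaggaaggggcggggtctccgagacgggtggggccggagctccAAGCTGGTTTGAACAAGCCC
XPC (chr3:14178570-14178589, minus strand): GAATTTGCCCAGACAAGCAA
MDM2 held 2 matches 18 bases apart, with 2 and 3 mismatches, in the 2 overlapping windows at its inner promoter, while 2 other MDM2 windows farther upstream held none. DDB2 held the closest match, with 1 mismatch, which 0.0940% of all windows reach or better. AEN and FAS had 2 mismatches, reached by 0.649% of all windows, and SESN1 and XPC had 3. The windows of ZMAT3 and TP53I3 held no such match, and the closest in them had 4 and 5 mismatches. Sites with bases between the half-sites, or outside the windows, would be missed by this search. Matches stood in both genes that fell in JQ1 (MDM2 and AEN) and in 3 of the 6 that rose (DDB2, SESN1 and XPC), while ZMAT3, which also rose, had none and TP53INP1 and RRM2B were not searched. The E-box CACGTG, searched on both strands, stood in the AEN window only, and in 7.26% of all windows. The E-box CAGATG, a form bound by NEUROD1, stood in 1 window each of ZMAT3 and FAS, and in 14.7% of all windows on either strand. A match describes these letters and does not show that a factor binds there.

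The targets moved in both directions. At 0.5 µM JQ1, 6 of the 9 tested genes rose (TP53INP1, RRM2B, XPC, SESN1, DDB2 and ZMAT3), 2 fell (MDM2 and AEN) and TP53I3 did not pass the test, which was limma with Benjamini-Hochberg adjustment over all genes and a threshold of 0.05. Of all tested genes, 35.3% rose and 34.7% fell at this dose, 70.0% in all. At 1.5 µM the same 6 genes rose and the same 2 fell, where 36.9% of all genes rose and 36.2% fell, 73.1% in all. With 9 genes, a count of 8 beside such a background is no result about these targets as a group. The median log2 fold change over the 9 genes was 0.53 at 0.5 µM and 0.67 at 1.5 µM, against -0.010 and -0.0030 over all tested genes. Both doses were compared with the same DMSO libraries, so their results are not independent of each other. The JQ1 and DMSO libraries did not overlap for 7 of the 9 genes at 0.5 µM (72.6% of all genes) and for 8 at 1.5 µM (81.7% of all genes).

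**Figure D1:**
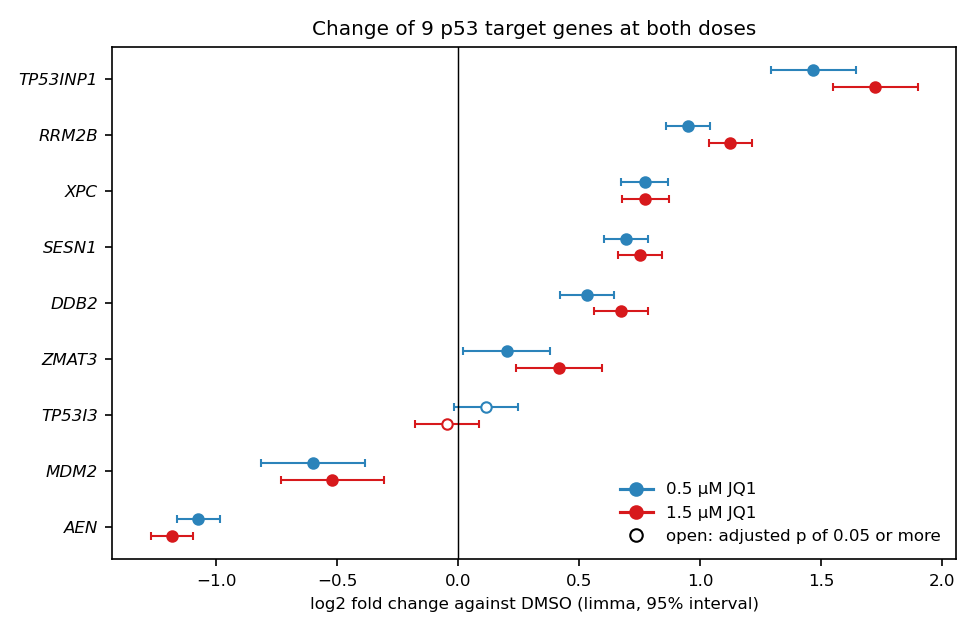
Log2 fold changes against DMSO of the 9 tested p53 target genes (x axis) at 0.5 µM JQ1 (blue) and 1.5 µM JQ1 (red), with 95% intervals from limma; open circles mark an adjusted p of 0.05 or more. TP53INP1 lies highest at 1.47 and 1.72, AEN lies lowest at -1.07 and -1.18, and the TP53I3 intervals include 0 at both doses.

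RRM2B, XPC and DDB2, which act in nucleotide supply or DNA repair, each rose. RRM2B (ENSG00000048392.7) encodes the stress-induced small subunit of ribonucleotide reductase, which supplies deoxynucleotides for repair outside S phase. It had 1636, 1751 and 1709 normalized counts in DMSO, 3405, 3182 and 3261 at 0.5 µM, and 3612, 3768 and 3733 at 1.5 µM. All 6 JQ1 libraries lay above all 3 DMSO libraries, and the libraries of 1.5 µM all lay above those of 0.5 µM. RRM2B rose 1.93-fold at 0.5 µM (log2 fold change 0.95 ± 0.040, SE, limma adjusted p = 1.38e-08) and 2.18-fold at 1.5 µM (1.13 ± 0.040, adjusted p = 2.48e-09).

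XPC (ENSG00000154767.10) encodes the damage sensor that starts global genome nucleotide excision repair. It had 1678, 1730.1 and 1725 normalized counts in DMSO, 2920.5, 3057 and 2785 at 0.5 µM, and 2837, 3027 and 2914 at 1.5 µM. The JQ1 libraries lay above the DMSO libraries and the doses overlapped. XPC rose 1.71-fold at either dose, with log2 fold changes of 0.77 ± 0.043 at 0.5 µM (SE, limma adjusted p = 8.77e-08) and 0.77 ± 0.043 at 1.5 µM (adjusted p = 5.68e-08). DDB2 (ENSG00000134574.7), the damaged-DNA binding subunit that hands ultraviolet lesions to XPC, had 1286, 1311 and 1295 normalized counts in DMSO, 1775, 2025 and 1839 at 0.5 µM, and 2010.1, 2076 and 2119 at 1.5 µM. Again no JQ1 library reached down to a DMSO library. DDB2 rose 1.45-fold at 0.5 µM (0.53 ± 0.051, adjusted p = 4.73e-06) and 1.59-fold at 1.5 µM (0.67 ± 0.051, adjusted p = 5.81e-07).

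TP53INP1 showed the largest change of the 9 genes. TP53INP1 (ENSG00000164938.9) encodes a nuclear stress protein that promotes p53-dependent death and autophagy. It had 1621, 1656 and 1816 normalized counts in DMSO, 4895, 4083 and 5163 at 0.5 µM, and 5432, 5771 and 5612.5 at 1.5 µM. The 3 groups did not overlap, and 0.5 µM replicate 2 was the lowest library of its dose. TP53INP1 rose 2.76-fold at 0.5 µM (log2 fold change 1.47 ± 0.079, SE, limma adjusted p = 6.44e-08) and 3.30-fold at 1.5 µM (1.72 ± 0.079, adjusted p = 1.24e-08), a larger absolute change than 92.1% of all tested genes showed at either dose.

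SESN1 (ENSG00000080546.9), a sestrin that restrains the growth kinase complex mTORC1, had 2071, 2119 and 2012 normalized counts in DMSO, 3310, 3527.5 and 3210.0 at 0.5 µM, and 3447, 3481 and 3522 at 1.5 µM. All JQ1 libraries lay above all DMSO libraries. SESN1 rose 1.62-fold at 0.5 µM (log2 fold change 0.69 ± 0.041, SE, limma adjusted p = 1.28e-07) and 1.68-fold at 1.5 µM (0.75 ± 0.041, adjusted p = 4.75e-08).

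ZMAT3 and TP53I3 showed the smallest changes. ZMAT3 (ENSG00000172667.6), an RNA-binding zinc finger protein that acts on splicing downstream of p53, had 2721, 2764 and 2891 normalized counts in DMSO, 3528.5, 2735 and 3415 at 0.5 µM, and 3717, 3686 and 3783 at 1.5 µM. At 0.5 µM, replicate 2 lay among the DMSO libraries and the other 2 lay above them, while the 1.5 µM libraries all lay above DMSO. ZMAT3 rose 1.34-fold at 1.5 µM (log2 fold change 0.42 ± 0.080, SE, limma adjusted p = 0.000739). At 0.5 µM it had 0.20 ± 0.080 (adjusted p = 0.0452), a call that held in 10 of 23 settings, the reported one included (range of adjusted p 4.24e-06 to 0.307). Without 0.5 µM replicate 2 the value was 0.31 (adjusted p = 4.24e-06), but leaving out any other 1 library ended the call (adjusted p of 0.0587 to 0.167), and without the 3 libraries with H19 it was 0.15 (adjusted p = 0.232). TP53I3 (ENSG00000115129.9), a quinone oxidoreductase linked to oxidative stress, had 727, 787 and 736 normalized counts in DMSO, 776, 857 and 802 at 0.5 µM, and 761, 721 and 700 at 1.5 µM. The groups overlapped in both comparisons with DMSO. Its log2 fold change was 0.11 at 0.5 µM (95% interval -0.018 to 0.246, limma adjusted p = 0.110) and -0.045 at 1.5 µM (-0.177 to 0.0872, adjusted p = 0.514). On the FPKM values TP53I3 was lower at 1.5 µM (log2 difference -0.16, limma adjusted p = 0.0302). FAM228B, on the opposite strand at the TP53I3 locus, had 10.4 FPKM at 1.5 µM and 2.50 FPKM in DMSO, and its part in the TP53I3 values was not tested.

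**Figure D2:**
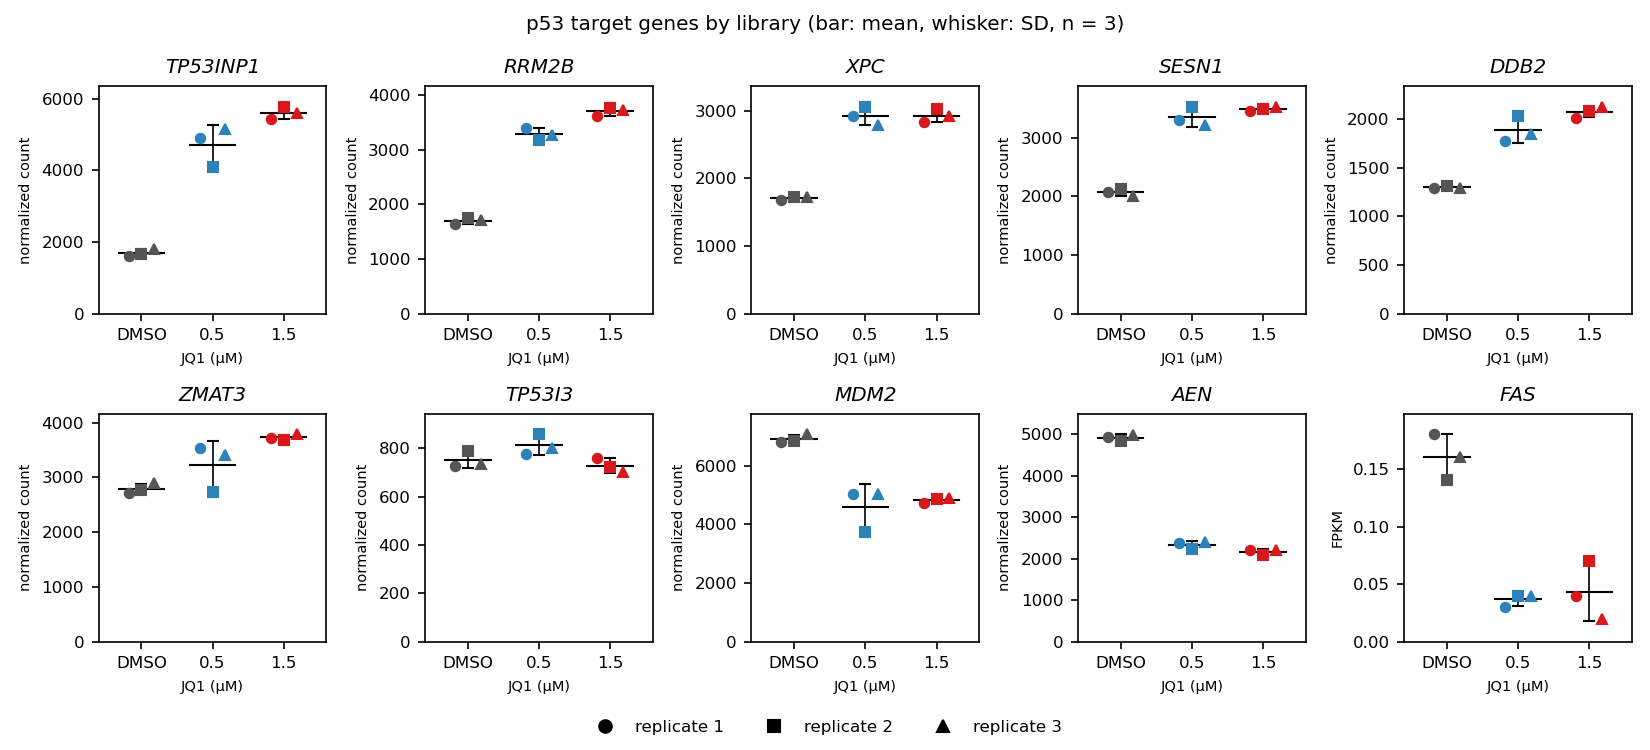
Normalized counts of 9 p53 target genes, and FPKM of FAS, in each library of DMSO (grey), 0.5 µM JQ1 (blue) and 1.5 µM JQ1 (red); symbols mark replicates, bars the mean and whiskers the SD (n = 3), and each axis starts at 0. RRM2B averages 3704 normalized counts at 1.5 µM against 1698 in DMSO and AEN 2167 against 4917, and 0.5 µM replicate 2 (blue square) lies lowest of its dose for MDM2, ZMAT3 and TP53INP1.

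MDM2, the negative regulator of p53 and a classical p53 target, fell. MDM2 (ENSG00000135679.17) had 6820, 6837 and 7061 normalized counts in DMSO, 5034, 3725 and 5043 at 0.5 µM, and 4719, 4847 and 4883 at 1.5 µM. Every JQ1 library lay below every DMSO library, and 0.5 µM replicate 2 was lower than the other 2 of its dose. MDM2 fell to 4601 ± 759 normalized counts at 0.5 µM (SD, n = 3), against 6906 ± 134 in DMSO (log2 fold change -0.60 ± 0.096, SE, limma adjusted p = 0.000238). At 1.5 µM it fell to 4816 ± 86.2 normalized counts (-0.52 ± 0.096, adjusted p = 0.000579). Without 0.5 µM replicate 2 the change at 0.5 µM was -0.45 (adjusted p = 2.46e-08). CPM, which encodes carboxypeptidase M and overlaps MDM2 on the opposite strand, had 16.4 FPKM at 1.5 µM against 45.3 FPKM in DMSO. AC025423.2, a processed pseudogene that overlaps MDM2 on the same strand, had 9.56 FPKM at 1.5 µM against 11.96 FPKM in DMSO. The part of CPM and AC025423.2 in the MDM2 values was not tested.

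The genes whose pattern over the 9 libraries was most like that of MDM2, by Pearson correlation of log2 normalized counts, were COLGALT1, URB2, LETM1 (r = 0.996 for each), GOT2 and MIEF1 (r = 0.994 for both). They were taken from 14218 genes with a mean of at least 100 normalized counts, of which 294 had r over 0.95. The 9 libraries fall into 3 treatment groups, so the correlations mostly describe the difference between JQ1 and DMSO and the low value of 0.5 µM replicate 2. URB2, a nucleolar protein of ribosome biogenesis, changed by -0.49 on the log2 scale at 1.5 µM, and LETM1, a mitochondrial inner membrane protein, by -0.51.

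AEN and FAS are tied to cell death, as is TP53INP1, which rose. AEN fell the most of the 9 tested genes. AEN (ENSG00000181026.13) encodes a nuclease that enlarges DNA fragmentation in apoptosis. It had 4927, 4832 and 4991 normalized counts in DMSO, 2378, 2240 and 2394 at 0.5 µM, and 2204, 2085.5 and 2212 at 1.5 µM. The JQ1 libraries lay far below the DMSO libraries. AEN fell to 2337 ± 84.9 normalized counts at 0.5 µM (SD, n = 3), against 4917 ± 80.1 in DMSO (log2 fold change -1.07 ± 0.040, SE, limma adjusted p = 5.89e-09). It fell to 2167 ± 70.8 at 1.5 µM (-1.18 ± 0.040, adjusted p = 1.58e-09). FAS (ENSG00000026103.15), the death receptor, was barely expressed, with 0.18, 0.14 and 0.16 FPKM in DMSO, 0.03, 0.04 and 0.04 FPKM at 0.5 µM, and 0.04, 0.07 and 0.02 FPKM at 1.5 µM. Every JQ1 library lay below every DMSO library for FAS, at values too low for a test here.

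Scaled for transcript length, the 10 genes spanned a wide range of levels in DMSO. MDM2 had the highest level, 29.1 ± 0.40 FPKM (SD, n = 3), followed by AEN with 25.0 ± 0.15 FPKM. DDB2 (11.6 ± 0.069 FPKM) and SESN1 (11.5 ± 0.55 FPKM) came next and overlapped each other. TP53I3 (9.05 FPKM), XPC (7.75 FPKM) and RRM2B (6.36 FPKM) followed without overlap between neighbours. ZMAT3 (5.04 ± 0.46 FPKM) and TP53INP1 (4.60 ± 0.21 FPKM) overlapped, and FAS was last at 0.16 ± 0.02 FPKM. At 1.5 µM JQ1 the spread among the 9 tested genes was narrower: MDM2 had 20.7 FPKM, DDB2 17.6, SESN1 17.3, TP53INP1 14.7, RRM2B 12.7, XPC 12.4, AEN 10.3, TP53I3 8.10 and ZMAT3 6.39 FPKM. In that order AEN, second of the 9 in DMSO, stood below XPC, and TP53INP1, last of the 9 in DMSO, stood above RRM2B.

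Between the doses, 1 of the 9 genes passed the test. RRM2B was higher at 1.5 µM than at 0.5 µM, with 3704 ± 81.9 and 3283 ± 113 normalized counts (log2 difference 0.17, 95% interval 0.0848 to 0.264, limma adjusted p = 0.0208). Over all genes, 4.66% were higher and 8.09% lower at 1.5 µM, 12.7% in all. The RRM2B call held in 19 of 23 settings (range of adjusted p 0.00211 to 0.315). It was lost on FPKM values (0.17, adjusted p = 0.129), without 1.5 µM replicate 2 (0.16, adjusted p = 0.0899) or replicate 3 (0.17, adjusted p = 0.0816), and without the 3 libraries with H19 (0.18, adjusted p = 0.315). TP53INP1 had a log2 difference of 0.26 (0.082 to 0.432, limma adjusted p = 0.059), and passed without 0.5 µM replicate 2 (0.16, adjusted p = 0.0426) or replicate 3 (0.33, adjusted p = 0.0263), and by DESeq2 (0.25, adjusted p = 0.0161). The 2 doses did not overlap for 5 of the 9 genes (RRM2B, TP53INP1, ZMAT3, TP53I3 and AEN), against 33.7% of all tested genes.

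The other genes did not pass between the doses, although the intervals of some excluded 0 before adjustment. ZMAT3 had a difference of 0.22 (0.0398 to 0.396, limma adjusted p = 0.105) and TP53I3 -0.16 (-0.290 to -0.0266, adjusted p = 0.110). XPC had a difference of 0.0029 (-0.0929 to 0.0988, limma adjusted p = 0.974), and SESN1 0.058 (-0.0333 to 0.149). MDM2 had 0.080 (-0.134 to 0.294), which was -0.065 without 0.5 µM replicate 2. DDB2 had 0.14 (0.0271 to 0.253, limma adjusted p = 0.101) and AEN -0.11 (-0.197 to -0.021, adjusted p = 0.102). Without 0.5 µM replicate 2, DDB2 (0.19, adjusted p = 0.00529) and AEN (-0.14, adjusted p = 0.0167) passed.

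The genes also differed in how 0.5 µM replicate 2 departed from the other libraries of its dose. It was the lowest of the 3 for MDM2, with 0.739 times the mean of the other 2, for ZMAT3 (0.788 times), TP53INP1 (0.812 times), AEN and RRM2B. It was the highest of the 3 for DDB2 (1.12 times), TP53I3, SESN1 and XPC. The genes lowest in that library thus included both the 2 that fell and some that rose in JQ1.

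Both relatives of p53 changed in JQ1, with TP63 lower and TP73 higher. TP63, the family member of squamous epithelium, fell to 30.3 ± 8.64 normalized counts at 0.5 µM and 22.6 ± 3.56 at 1.5 µM (SD, n = 3), against 613 ± 44.9 in DMSO (limma adjusted p = 4.31e-08 and 1.44e-08). TP73, which binds the same sites as p53, rose to 2492 ± 236 and 2632 ± 60.3 normalized counts, against 2122 ± 55.2 in DMSO (limma adjusted p = 0.00726 and 0.000958), and at 0.5 µM it missed the threshold without the 3 libraries with H19 (adjusted p = 0.0689). MDM4, the partner of MDM2 in holding p53 down, had 2032, 1255 and 2179 normalized counts at 0.5 µM, against 2280, 2302 and 2354 in DMSO (log2 fold change -0.38, limma adjusted p = 0.055). At 1.5 µM MDM4 had 2227 ± 74.3 normalized counts (adjusted p = 0.774). MDM4 at 0.5 µM passed under upper-quartile scaling (adjusted p = 0.038), without any 1 of the 0.5 µM libraries (adjusted p of 0.0108 to 0.0332) and without the 3 libraries with H19 (-0.53, adjusted p = 0.0404). The size of its change rested on single libraries, with -0.14 without 0.5 µM replicate 2 and -0.53 without replicate 3. A level of RNA does not give the level or activity of these proteins.

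The p53 targets most used as readouts did not move as one. CDKN1A, the cyclin-dependent kinase inhibitor p21, had 13488, 12803 and 13647 normalized counts at 0.5 µM and 12706, 11921 and 12063 at 1.5 µM, against 12776, 12688 and 12853 in DMSO. The libraries overlapped in both comparisons, with log2 fold changes of 0.059 (limma adjusted p = 0.149) and -0.063 (adjusted p = 0.123). Between the doses CDKN1A was lower at 1.5 µM than at 0.5 µM, without overlap (log2 difference -0.12, limma adjusted p = 0.0449), a call that held in 11 of 23 settings (range of adjusted p 0.00406 to 0.334). It was lost with upper-quartile scaling (adjusted p = 0.0719), on FPKM values (0.0749), without trend (0.0948) and on the 6 libraries compared (0.116). It was lost as well without the 3 libraries with H19 (log2 difference -0.12), which left only replicate 3 at 1.5 µM. Leaving out any 1 library other than 0.5 µM replicate 2 or 1.5 µM replicate 1 also ended it (adjusted p of 0.0666 to 0.168). PPM1D, BBC3, BAX and PMAIP1 did not pass between the doses (adjusted p of 0.114 to 0.872), and PMAIP1 passed as lower at 1.5 µM without 0.5 µM replicate 3 (-0.26, adjusted p = 0.0435). At 1.5 µM CDKN1A passed as lower with upper-quartile scaling (-0.11, limma adjusted p = 0.0216), on FPKM values (-0.12, adjusted p = 0.0235) and on the 6 libraries compared (-0.063, adjusted p = 0.0464). It also passed there without 0.5 µM replicate 2 (adjusted p = 0.0369) or 1.5 µM replicate 1 (adjusted p = 0.0457), and at 0.5 µM it passed as higher without replicate 2 (0.087, adjusted p = 0.0149). PPM1D, a phosphatase that turns p53 off again, rose to 3587 ± 189 and 3697 ± 61.0 normalized counts, against 2863 ± 127 in DMSO (limma adjusted p = 0.000102 and 3.23e-05). Of the death effectors, BBC3 (PUMA) fell by 0.35 and 0.37 on the log2 scale, and BAX fell by 0.11 and 0.20, a call lost on FPKM values (adjusted p = 0.596 and 0.0712) and, at 0.5 µM, without replicate 3 of that dose (adjusted p = 0.051) or without the 3 libraries with H19 (adjusted p = 0.109). PMAIP1 (NOXA) rose by 0.42 at 0.5 µM and 0.24 at 1.5 µM (limma adjusted p = 0.000851 and 0.0189), and the call at 1.5 µM was lost on FPKM values (0.16, adjusted p = 0.153). It was lost as well without DMSO replicate 1 or 3 or 1.5 µM replicate 1 or 3 (adjusted p of 0.05 to 0.0528). The same held without the 3 libraries with H19 (0.26), which left only replicate 3 at 1.5 µM. GDF15, a secreted stress cytokine, was too low for a test, with 0.07 and 0.02 FPKM and a value listed at 0 at 1.5 µM and all 3 listed at 0 at 0.5 µM, against 0.17, 0.15 and 0.17 FPKM in DMSO.

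**Figure D3:**
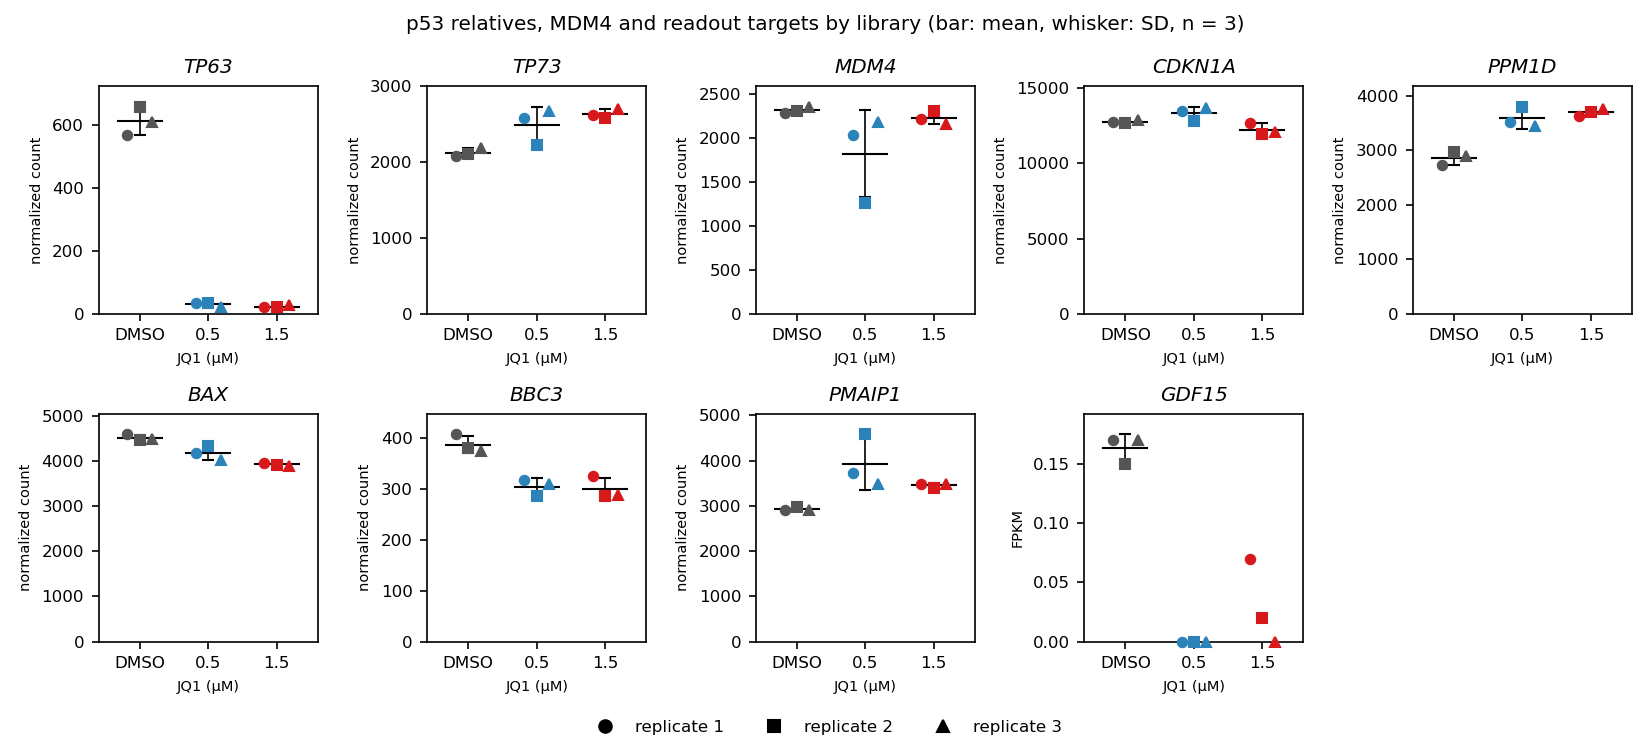
Normalized counts of TP63, TP73, MDM4 and 5 commonly used p53 targets, and FPKM of GDF15, in each library of DMSO (grey), 0.5 µM JQ1 (blue) and 1.5 µM JQ1 (red); bars give the mean and whiskers the SD (n = 3), left out where a value is 0. TP63 averages 30.3 and 22.6 normalized counts in JQ1 against 613 in DMSO, and CDKN1A overlaps DMSO at both doses.

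Other reported p53 targets were followed in 4 lists of 99 genes, of which 83 were tested. Of these, 45 rose at either dose, while 25 fell at 0.5 µM and 26 at 1.5 µM, with median log2 fold changes of 0.19 and 0.17. That is 54.2% higher at either dose and 30.1% and 31.3% lower, beside 35.3% and 36.9% higher and 34.7% and 36.2% lower of all tested genes, and the same shares of all genes stand behind the counts of each list. Among 23 tested genes of repair, metabolism and redox control, 15 rose at 0.5 µM and 16 at 1.5 µM, and 4 fell at either dose, the highest medians of the 4 lists (0.28 and 0.29). ACER2, a ceramidase, rose by 1.22 on the log2 scale at 1.5 µM, while DRAM1, a lysosomal protein of autophagy, fell by 2.19 and DDIT4, an inhibitor of mTORC1, fell by 1.35. Among 14 tested genes of arrest and feedback, 7 rose and 4 fell at both doses. BTG1, an antiproliferative protein, rose by 1.13, and its relative BTG2 and the G2 checkpoint protein SFN fell by 0.89 and 1.33. Among 17 tested genes of cell death, 7 rose at 0.5 µM and 6 at 1.5 µM, against 9 and 8 that fell, with medians of -0.11 and -0.12. TNFAIP8, an inhibitor of apoptosis, rose by 1.26, and STEAP3, a metalloreductase, and SHISA5, a membrane protein of p53-dependent death, fell by 1.39 and 1.32. Among 29 tested genes of signalling and other functions, 16 rose at either dose, and 8 fell at 0.5 µM and 10 at 1.5 µM. SERTAD1, a regulator of E2F transcription, rose by 2.24, and PSTPIP2 and EPS8L2, both adaptors of the actin cytoskeleton, fell by 2.19 and 1.88. These values are log2 fold changes at 1.5 µM. The 12 genes named from the lists were picked as those with the largest absolute change among genes past the test at this dose.

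**Figure D4:**
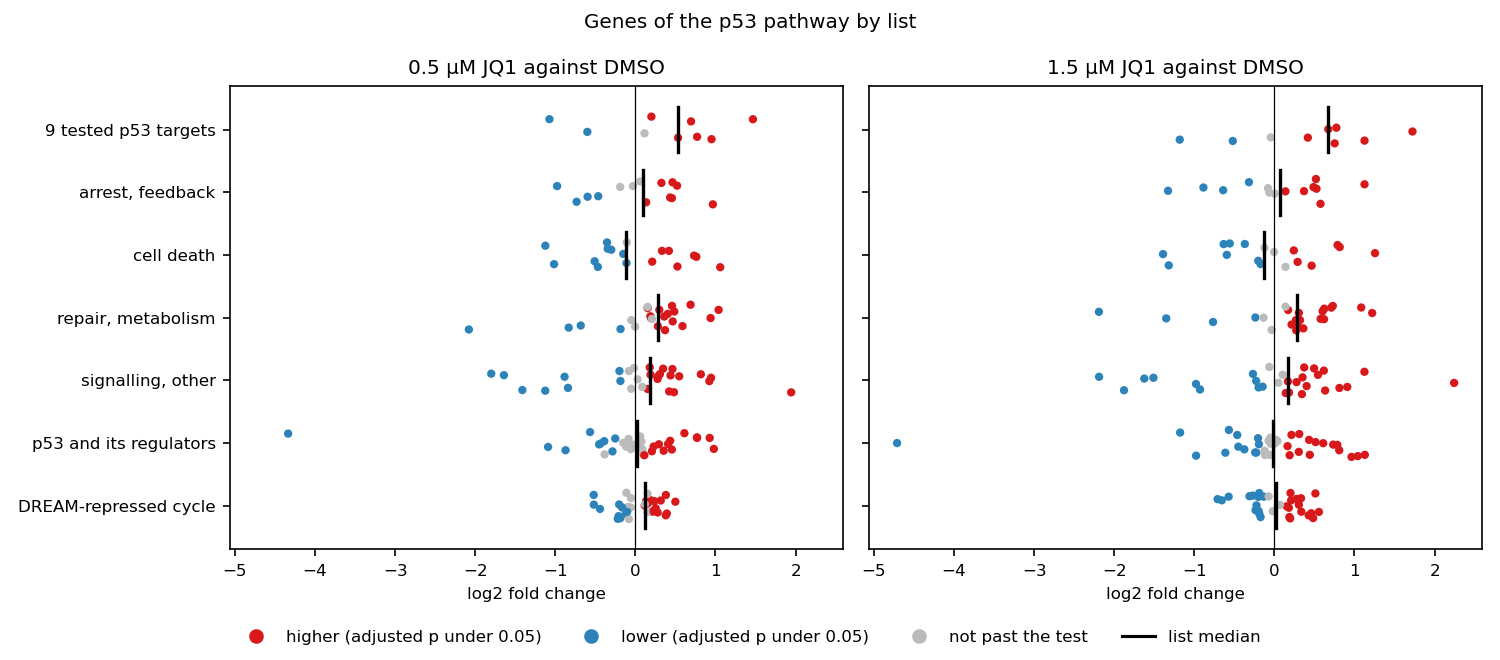
Log2 fold changes (x axis) of the tested genes of each list at 0.5 µM JQ1 (left) and 1.5 µM JQ1 (right), each point a gene, red where higher and blue where lower by limma (adjusted p under 0.05), grey otherwise, with black bars at the list medians. Every list holds red and blue points at both doses, and the median of the 9 p53 targets lies at 0.53 and 0.67.

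Genes that control p53 and genes that lie downstream of p21 held calls in both directions, as did all tested genes (35.3% higher and 34.7% lower at 0.5 µM, 36.9% and 36.2% at 1.5 µM). Of 36 tested genes of the p53 family and its regulators, 13 (36.1%) were higher and 9 (25%) lower at 0.5 µM, as were 15 (41.7%) and 12 (33.3%) at 1.5 µM. PPP1R13B (ASPP1), which steers p53 towards death genes, rose by 1.13 on the log2 scale at 1.5 µM, and RCHY1 (PIRH2), another ubiquitin ligase of p53, fell by 1.18. Of 32 cell cycle genes that p53 is known to lower through p21 and the DREAM complex, 14 (43.8%) were higher and 10 (31.2%) lower at 0.5 µM, as were 15 (46.9%) and 14 (43.8%) at 1.5 µM, with medians of 0.12 and 0.025. LIN9, a subunit of DREAM itself, fell by 0.71 at 1.5 µM, MCM5, a replicative helicase subunit, by 0.66, and CDC25A, a cell cycle phosphatase, by 0.57. Of 13 tested markers of SCLC, 4 rose at either dose (30.8%), while 7 fell at 0.5 µM (53.8%) and 6 at 1.5 µM (46.2%). NEUROD1, which defines the subtype of this line, rose by 0.44 and 0.48 on the log2 scale, while the neuroendocrine markers CHGA (-0.41 and -0.44) and SYP (-0.28 and -0.35) fell. INSM1 had 0.0031 and 0.0070, and its sign turned under several settings.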

How the data were processed

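Total RNA of 9 libraries was sequenced after stranded TruSeq preparation, per the labels' protocols. The submitters' processing notes name cutadapt, STAR, RSEM and hg19; the sources used here do not give versions, the annotation or whether counting used strand, which leaves genes with an overlapping neighbour uncertain. Of the 10 genes, RRM2B, AEN and ZMAT3 overlap no other gene in GENCODE 29. NDUFAF6, opposite TP53INP1, had 18.7 FPKM in DMSO and 12.2 FPKM at 1.5 µM. LSM3, opposite XPC, had 10.1 and 7.23 FPKM. The part of these neighbours in the values was not tested. Tests used the normalized counts that the authors deposited, a signal that equals whole reads divided by 1 size factor per library (100% of the values whole within 0.001). The authors' deposited FPKM values (57820 genes) gave levels scaled for length and served as an alternative.

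Genes with at least 10 normalized counts in at least 3 libraries were tested with limma 3.58.1 (R 4.3.3) on the log2 of the normalized count + 1 (trend on the mean, 9 libraries fitted together), two-sided, with Benjamini-Hochberg adjustment over 17514 genes and a threshold of 0.05. The fold changes of low genes are understated on this scale, and p-values measure the spread between the libraries labelled as biological replicates. On the recovered reads, edgeR 4.0.16 called 12240 and DESeq2 1.42.0 called 12161 genes at 0.5 µM, against 12255 by limma, and 12897 and 12808 at 1.5 µM, against 12806.

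All 10 genes are named, with a fixed set of p53 family, readout and identity genes, up to 3 genes per list (past the test at 1.5 µM, mean of at least 20, largest absolute change), and the 5 genes most correlated with MDM2. The genes and lists were chosen with earlier results of these data known. There were 22 alternatives: pseudocounts of 0.1 and 5, no filter or a minimum of 50, TMM or upper-quartile scaling, FPKM values (log2 of the value + 0.1), limma without trend or on the 6 libraries compared, a replicate block, edgeR, DESeq2, each library left out, and the 3 libraries with H19 left out together. The last of these leaves only replicate 3 at 1.5 µM. Promoter sequences are from RefSeq (GRCh38.p14), another build than that of the authors. Gene IDs of 16970 genes matched GENCODE 29. Some genes of the fixed set are not reported here.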

Additional observations from a re-analysis of the deposited data

Results flagged for a closer look

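RRM2B, the stress-induced subunit of ribonucleotide reductase, was singled out because the difference between the doses itself passed the test: the log2 difference was 0.17 (limma adjusted p = 0.0208), with all 3 libraries at 1.5 µM above all 3 at 0.5 µM. Of the 9 tested p53 targets it was the only one to pass, and the call was lost in 4 of 22 alternatives. CDKN1A, the kinase inhibitor p21, was singled out in the same way, with a log2 difference of -0.12 between 1.5 µM and 0.5 µM (limma adjusted p = 0.0449) and all 3 libraries at 1.5 µM below all 3 at 0.5 µM, a call lost in 12 of 22 alternatives.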

How the results depend on the processing

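The directions and calls of TP53INP1, RRM2B, XPC, SESN1, DDB2, MDM2 and AEN against DMSO held in all 23 settings at both doses. Leaving out a library of the other dose cannot move these fold changes and can alter only their SE and adjusted p. ZMAT3 held at 1.5 µM and in 10 of 23 settings at 0.5 µM. Between the doses, results depended on the libraries included. The count of 2233 genes became 892 on FPKM values, 1123 on the 6 libraries compared, 1002 to 3217 with 1 library left out (1473 without DMSO replicate 2 and 1327, 1002 and 1023 without 1.5 µM replicates 1, 2 and 3), and 48 without the 3 libraries with H19. The share of these calls that were higher was 36.5%, but 19.5% on FPKM values, 24.1% and 24.3% without 1.5 µM replicate 2 or 3, and 0% without the 3 libraries. Of the p53 targets, 1 was higher, against 0 on FPKM values, 2 by DESeq2, and 0 to 3 with 1 library left out. As lower, 0 passed by limma, edgeR or DESeq2, and 0 to 1 with 1 library left out (AEN without 0.5 µM replicate 2). At an unadjusted p under 0.05 by limma, 2 were lower (AEN and TP53I3). The causes were not tested. Signs turned for XPC between doses (-0.049 on FPKM values, -0.036 without the 3 libraries, and -0.031 to 0.036 with 1 library left out, negative without 0.5 µM replicate 3 or 1.5 µM replicate 2), MDM2 between doses (-0.065 to 0.15 with 1 library left out, negative without 0.5 µM replicate 2), BBC3 between doses (-0.083 to 0.011 with 1 library left out, positive without 0.5 µM replicate 1 or 1.5 µM replicate 2 or 3) and MDM4 at 1.5 µM (0.17 on FPKM values). INSM1 at 0.5 µM had -0.051 with upper-quartile scaling, -0.038 on FPKM values, -0.015 without the 3 libraries, and -0.031 to 0.056 with 1 library left out, negative without DMSO replicate 2 or 3 or 0.5 µM replicate 1 or 3. INSM1 at 1.5 µM had -0.044 with upper-quartile scaling, -0.053 on FPKM values, and -0.0087 to 0.024 with 1 library left out, negative without DMSO replicate 2 or 1.5 µM replicate 3. Replicate numbers did not pair the libraries (correlations of same-numbered deviations -0.385 to 0.131). With the replicate block 12329 and 12852 genes changed against DMSO and 2030 between doses, and 0 of 105 results changed their call. Of 2112 other values for single genes, 2034 kept direction and call, 20 turned, 18 gained and 40 lost a call. FAS and GDF15 were too low for a test.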
